A study of Danio rerio with 12 samples.

Results

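Keratins krt4, krt8, krt5 and krt1-19e were followed in RNA from sorted endothelial cells of zebrafish embryos. All probe sets whose platform symbol was one of these 4 names were taken, which gave 5 of the 15502 probe sets tested and 4 of the 8793 genes they name. Genes krt4, krt8 and krt5 had 1 probe set each, and krt1-19e had 2.

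Embryos carried the transgene flk1:GFP, in which the promoter of the VEGF receptor gene kdrl (flk1) drives GFP in endothelium, and cells carrying GFP were sorted from them at an age of 48 hours. All 12 arrays came from such sorts. Each of the 3 groups, control, miR-126 MO-1 and also miR-126 MO-2, held 4 biological replicates, numbered 1 to 4. MO-1 and MO-2 are separate morpholinos, antisense oligonucleotides against the processing of the precursor of miR-126, a microRNA of endothelial cells, and 4 ng was injected at the one-cell stage. Control replicate 1 is marked as uninjected, the labels are silent on injection for control replicates 2, 3 and 4, and no control oligonucleotide is named. Injection and loss of miR-126 therefore cannot be told apart. The series asked which genes miR-126 regulates in endothelium. The sources used here do not say what a replicate number stood for.

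Keratins are the intermediate filament proteins of epithelia. A type I and a type II keratin pair to form the filaments, which anchor at desmosomes and hemidesmosomes and carry mechanical load. At this age the zebrafish epidermis is a thin sheet with an outer periderm over a basal layer. The krt4 promoter is widely used to label the outer skin cells, and that of krt1-19e (current symbol krtt1c19e) the basal cells. Of the members, krt4, krt8 and krt5 encode type II keratins and krt1-19e a type I keratin. In mammals, keratin 8 pairs with keratin 18 in simple epithelia, and keratin 5 is a keratin of basal epidermal cells. In RefSeq's zebrafish annotation krt5, krt8 and krt18a.1 lie together, with 0 protein-coding genes between krt5 and krt8 and 0 between krt8 and krt18a.1. The gene krt1-19e lies beside krt1-19d with 0 protein-coding genes between them, and krt17 and krt91 are 3 and 4 genes away. RefSeq lists the older name zf-K8 for both krt4 and krt8, and signal from probes that bind both could not be separated here.

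Values are log2 signals, so that a difference of 1 is a doubling. The medians of the 12 arrays lay between 6.80 and 6.86, their lower quartiles between 5.39 and 5.61 and their upper quartiles between 8.12 and 8.24. The number of arrays limits the precision, and levels of different probe sets are given side by side without comparison. Of the 12 measured endothelial markers, fli1 and plvapb had the highest mean signals, 8.90 and 8.66, and kdrl itself had 7.39. The arrays numbered 4 stood apart in every group. Of these 12 genes, 10 passed the test as lower there, against 4.1% of all probe sets tested. Their mean level was 6.43 to 6.88 against 7.41 to 8.11 in the other 9 arrays. The sorted RNA also held epidermal transcripts. Of the epidermal lists, the genes named here are those with the highest means and other genes of the lists lie lower. The junction protein genes epcam and cldnb had mean signals of 11.90 and 11.48, the surface and secreted gene icn 12.59 and anxa1c 11.06. Of the transcription factor genes, elf3 had 10.10 and the basal keratinocyte gene tp63 9.45. In RNA of many cells, fewer cells of a type and less RNA per cell cannot be told apart.

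Type II keratins krt4 and krt8 had high signals within a narrow range. Log2 signal of krt4 was 11.79, 12.19, 11.71 and 11.95 in control replicates 1 to 4, 11.79, 11.96, 11.47 and 12.03 with MO-1, and in the MO-2 group 11.71, 11.90, 11.47 and 12.14. All 12 values lay above the upper quartiles of the arrays, and the lowest value of each group came from replicate 3. Log2 signal of krt8 was 12.28, 12.54, 12.14 and 11.87 in control, 12.62, 12.04, 12.07 and 11.90 with MO-1, and in the MO-2 group 12.42, 12.51, 12.21 and 11.89. Here the lowest value of each group came from replicate 4, and the 3 groups overlapped throughout. The SD over the 12 arrays was 0.23 for krt4 and 0.27 for krt8, against a median of 0.26 over all probe sets tested.

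The type II keratin krt5 covered a far wider range. Its log2 signal was 7.43, 9.16, 7.66 and 10.69 in control replicates 1 to 4, 7.21, 8.77, 7.27 and 9.91 with MO-1, and in the MO-2 group 7.67, 9.17, 8.20 and 10.34. In each group replicate 4 was highest, replicate 2 came next, and replicates 1 and 3 were lowest. The ranges of the 3 groups overlapped almost entirely, while the 3 arrays numbered 4 lay above all other arrays. The SD over the 12 arrays was 1.23, and 44 of the 15502 probe sets (0.284%) had an SD at least as large.

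Both probe sets of the type I keratin krt1-19e had the same pattern as each other. Probe set 1, the one with the higher mean, had log2 signals of 9.89, 11.36, 7.79 and 11.79 in control, 9.14, 11.28, 8.05 and 12.25 with MO-1, and in the MO-2 group 10.76, 11.68, 9.82 and 12.24. Probe set 2 had 7.44, 9.72, 6.13 and 9.02 in control, 6.61, 8.64, 6.34 and 10.37 with MO-1, and in the MO-2 group 8.02, 9.70, 7.27 and 9.78. Replicate 3 was the lowest array of its group and replicate 1 the next in both probe sets and all 3 groups. Replicates 2 and 4 were highest, and only in control and only in probe set 2 did replicate 2 exceed replicate 4. The probe sets correlated at 0.96 over the 12 arrays, and their SDs, 1.55 and 1.49, were reached by 18 and 21 of the 15502 probe sets (0.116% and 0.135%).

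**Figure D1:**
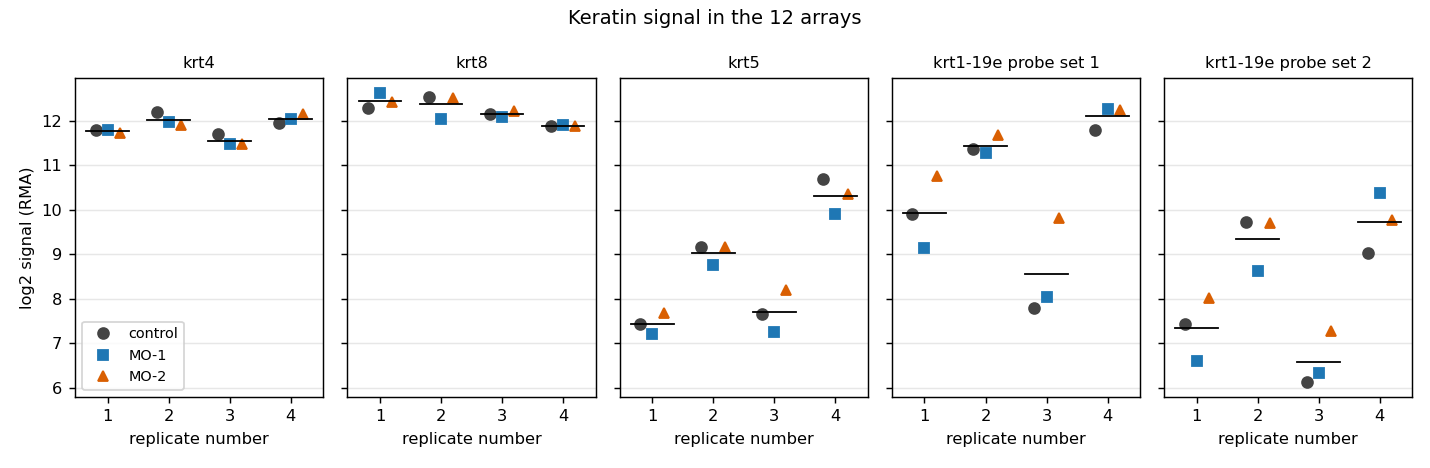
Log2 signal (RMA, vertical axis) of the 5 keratin probe sets in each of the 12 arrays, by replicate number (horizontal axis), with circles for control, squares for MO-1, triangles for MO-2 and a line at the mean of the 3 arrays of a number. Values of krt4 and krt8 stay between 11.47 and 12.62, while krt5 runs from 7.21 to 10.69 and probe set 1 of krt1-19e from 7.79 to 12.25. For krt5 and this probe set of krt1-19e the numbers keep the same order in every group, which does not hold for the others.

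The first set of comparisons asked whether the keratins differ between the morpholino groups and control. None of the 5 probe sets was called in any comparison. With limma, called at an adjusted p under 0.05 after Benjamini-Hochberg adjustment over all 15502 probe sets, 0 probe sets (0%) passed in MO-1 against control, 0 (0%) in MO-2 against control, 0 (0%) in both morpholinos against control and 0 (0%) in MO-2 against MO-1. At an unadjusted p under 0.05 the counts were 172, 345, 293 and 87 in the same order. With the replicate number as a block 0 were called in each, with 445, 947, 849 and 354 at an unadjusted p under 0.05.

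For krt4 and krt8 the intervals were narrow enough to bound the change. Mean log2 signal of krt4 was 11.91 ± 0.21 in control, and 11.82 ± 0.25 and 11.81 ± 0.28 in the MO-1 and MO-2 groups (SD, n = 4 each). The change was -0.09 with MO-1 (95% interval -0.48 to 0.29) and -0.10 with MO-2 (95% interval -0.49 to 0.28). Mean log2 signal of krt8 was 12.21 ± 0.28 in control, and 12.16 ± 0.32 and 12.26 ± 0.28 in the MO-1 and MO-2 groups (SD, n = 4 each). Its change was -0.05 with MO-1 (95% interval -0.48 to 0.38) and 0.05 with MO-2 (95% interval -0.38 to 0.48). A change of 1, a doubling, lies outside all 4 intervals, while changes inside them are not excluded by this fit. With the replicate block the intervals with MO-1 and MO-2 were -0.37 to 0.18 and -0.37 to 0.17 for krt4. For krt8 they were -0.36 to 0.26 and -0.26 to 0.37.

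For krt5 the groups differed by less than the spread inside them. Mean log2 signal was 8.73 ± 1.51 in control, and 8.29 ± 1.30 and 8.85 ± 1.17 in the MO-1 and MO-2 groups (SD, n = 4 each). The change was -0.44 with MO-1 (SE 0.79, 95% interval -2.15 to 1.26) and 0.11 with MO-2 (SE 0.79, 95% interval -1.59 to 1.82), and neither passed (limma, adjusted p = 1 each; exact permutation p = 0.686 and 0.857, two-sided, where 0.0286 is the smallest possible). Both of these tests ignore the replicate number, so the spread between numbers enters them. Between arrays of the same number, krt5 was lower with MO-1 than in control in 4 of 4 pairs, by differences of -0.22, -0.39, -0.39 and -0.78 for numbers 1 to 4. It was higher with MO-2 than with MO-1 in 4 of 4 pairs, by 0.47, 0.41, 0.93 and 0.43, and higher with MO-2 than in control in 3 of 4, by 0.24, 0.02, 0.54 and -0.35. These comparisons share arrays and are not independent of each other. With the replicate block, 445 of all 15502 probe sets had an unadjusted p under 0.05 in MO-1 against control, and 354 in MO-2 against MO-1. With the replicate number as a block, limma's interval for MO-1 against control was -0.77 to -0.11 (SE 0.15, unadjusted p = 0.0123) and that for MO-2 against MO-1 was 0.23 to 0.89 (SE 0.15, unadjusted p = 0.00296), and neither passed over all probe sets (adjusted p = 1 each). In the same order of numbers, the mean level of the epidermal surface list differed between MO-1 and control by -0.09, -0.24, 0.17 and -0.12, and that of the 11 other keratins by -0.06, -0.28, 0.15 and 0.07, so that neither list was lower in 4 of 4 pairs. Without control replicate 4 the krt5 difference between MO-1 and control, no longer balanced over numbers, was 0.21.

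For krt1-19e the differences were larger but so was the spread. Mean log2 signal of probe set 1 was 10.21 ± 1.80 in control, and 10.18 ± 1.92 and 11.12 ± 1.06 in the MO-1 and MO-2 groups (SD, n = 4 each). The change was -0.03 with MO-1 (SE 0.97, 95% interval -2.11 to 2.06) and 0.92 with MO-2 (SE 0.97, 95% interval -1.17 to 3.0), and neither passed (limma, adjusted p = 1 each; exact permutation p = 0.971 and 0.486). MO-2 exceeded control in 4 of 4 pairs of the same number, by 0.87, 0.31, 2.03 and 0.45, so that number 3 gave 55.4% of the summed difference. The interval with the replicate block was 0.30 to 1.53 (SE 0.28, unadjusted p = 0.00683), which did not pass over all probe sets (adjusted p = 0.514). Without control replicate 3 the difference was 0.11, and without all 3 arrays numbered 3 it was 0.54. Probe set 2 had a change of 0.61 with MO-2 (SE 0.94), with pair differences of 0.57, -0.02, 1.14 and 0.75, so that 3 of 4 were higher. Its interval with the replicate block, -0.08 to 1.31, crossed 0 (unadjusted p = 0.0799 by limma).

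The morpholinos were also compared with each other and jointly with control. MO-2 against MO-1 gave -0.01 for krt4 (95% interval -0.39 to 0.38), 0.10 for krt8 (95% interval -0.33 to 0.53), 0.56 for krt5 (95% interval -1.14 to 2.26), and 0.94 and 0.70 for krt1-19e (95% intervals -1.14 to 3.03 and -1.34 to 2.74). With the replicate block the intervals of krt1-19e were 0.33 to 1.56 and 0.01 to 1.40 (unadjusted p = 0.00564 and 0.0484 by limma, adjusted p = 1 each). Both morpholinos against control gave -0.10 for krt4, 0.00 for krt8, -0.16 for krt5, and 0.44 and 0.26 for krt1-19e, and none passed (limma, adjusted p = 1 each).

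Skeletal muscle genes also differed most in number 3. Their mean level over 20 measured genes was higher with MO-2 than in control by 0.25, 0.18, 1.68 and 0.62 for numbers 1 to 4, with 61.6% of the sum from number 3, and higher than with MO-1 by 0.97, 0.04, 1.24 and 0.48. The pair differences of krt1-19e probe set 1 between MO-2 and MO-1 were 1.62, 0.39, 1.77 and -0.01. All 20 muscle genes had a higher mean with MO-2 than in control (median 0.63, with 0 called), where 8047 of all 15502 probe sets were higher. The 20 genes moved together with the replicate number and are not independent of each other. Among them were the slow myosin gene smyhc1 at 1.21 (SE 0.60) and the parvalbumin gene pvalb4 at 1.21 (SE 0.82). Whether muscle RNA had a part in the values of krt1-19e was not tested.

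**Figure D2:**
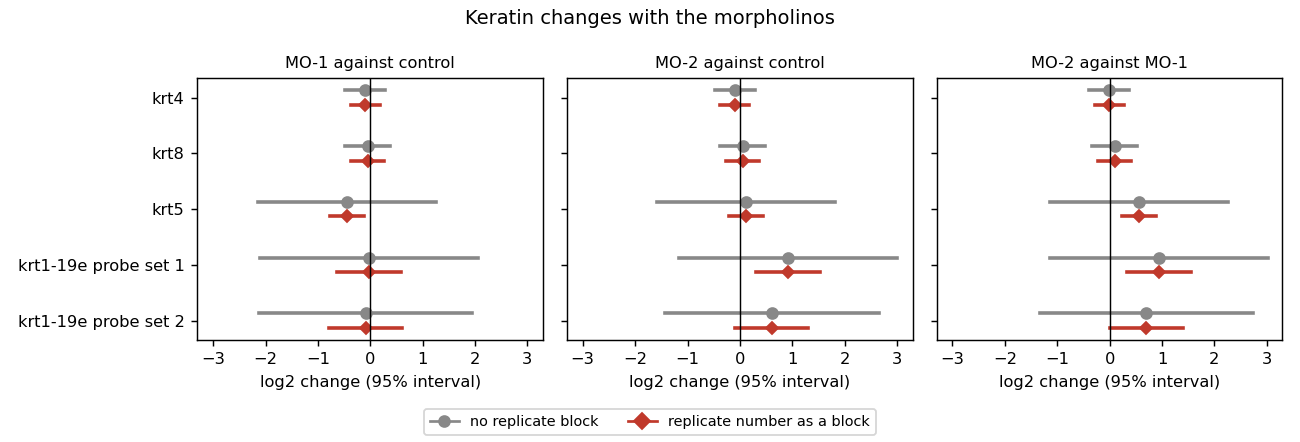
Log2 change (horizontal axis) of the 5 keratin probe sets in 3 group comparisons, with limma's 95% intervals, as circles without and as diamonds with the replicate number as a block. All intervals without the block cross 0, and with it those of krt5 in MO-1 against control (-0.77 to -0.11) and of krt1-19e probe set 1 in MO-2 against control (0.30 to 1.53) do not, nor do those of krt5 and both probe sets of krt1-19e in MO-2 against MO-1, although no probe set passed after adjustment.

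The second set of comparisons asked whether the keratins differ between replicate numbers when the group is held fixed. Levels of krt5 and krt1-19e did, and those of krt4 and krt8 did not pass in this fit. The F test of the replicate number called krt5 (F = 114, adjusted p = 7.09e-06 by limma) and both probe sets of krt1-19e (F = 47.0 and 33.9, adjusted p = 0.00029 and 0.000695). It did not call krt4 (adjusted p = 0.0904 by limma) or krt8 (adjusted p = 0.115 by limma), which were called with a variance trend and robust estimation and with array weights. That is 3 of 5 member probe sets, against 12.1% of all probe sets tested. The replicate number held 94.3% of the variance of krt5, 85.0% and 86.0% of that of krt1-19e, 82.2% of that of krt4 and 71.5% of that of krt8, with a median over all probe sets of 42.5%. The group held 4.17% for krt5, 8.70% and 4.79% for krt1-19e, 4.28% for krt4 and 2.57% for krt8, with a median over all probe sets of 8.86%.

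Arrays numbered 4 had the highest krt5 and krt1-19e. Against the other 3 numbers, krt5 was higher by 2.25 (SE 0.14, 95% interval 1.94 to 2.56), or 4.77-fold (limma, adjusted p = 4.28e-06). Probe sets of krt1-19e were higher by 2.12, or 4.33-fold (adjusted p = 0.000569 by limma), and by 1.96 (adjusted p = 0.00188 by limma). These 3 of 5 calls stand against 6.05% of all probe sets called higher there. The level of krt8 went the other way, with a change of -0.43 (95% interval -0.73 to -0.13) that did not pass (limma, adjusted p = 0.0661), so that 0 of 5 were called lower, against 4.1% of all probe sets. It was lowest in number 4 in each of the 3 groups, and it passed with a variance trend and robust estimation, with array weights, with no group term and without MO-1 replicate 2.

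Arrays numbered 3 and 1 were low for krt5 and for probe set 2 of krt1-19e, and number 3 also for probe set 1. In number 3, krt1-19e was lower, with changes of -2.60 in probe set 1 (95% interval -3.18 to -2.02), which is 6.05-fold, and -2.23 in probe set 2 (limma, adjusted p = 0.00136 and 0.00309). The change of krt5 was -1.22 (limma, adjusted p = 0.00212). The change of krt4 in number 3 was -0.39 and did not pass (limma, adjusted p = 0.0909), although it passed with a variance trend and robust estimation. In number 1 krt5 was 2.99-fold lower, a change of -1.58 (limma, adjusted p = 0.000557), while krt1-19e had changes of -0.76 in probe set 1 (limma, adjusted p = 0.138) and -1.20 in probe set 2 (limma, adjusted p = 0.0431). That gives 3 of 5 probe sets called lower in number 3, against 2.39% of all, and 2 of 5 in number 1, against 2.53% of all. The call of krt1-19e probe set 2 in number 1 was lost in 7 of 12 fits that left out 1 array.

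Number 2 was intermediate to high. Probe sets of krt1-19e were higher there by 1.25 and 1.47 (limma, adjusted p = 0.0459 and 0.0395), and krt5 was at 0.55 and did not pass (limma, adjusted p = 0.103). These 2 of 5 calls, against 0.826% of all probe sets called higher, were the least firm: leaving out 1 array ended that of probe set 1 in 9 of 12 fits and that of probe set 2 in 7 of 12. Each number is set against the mean of the same other arrays, so the 4 contrasts of a gene are not independent.

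**Figure D3:**
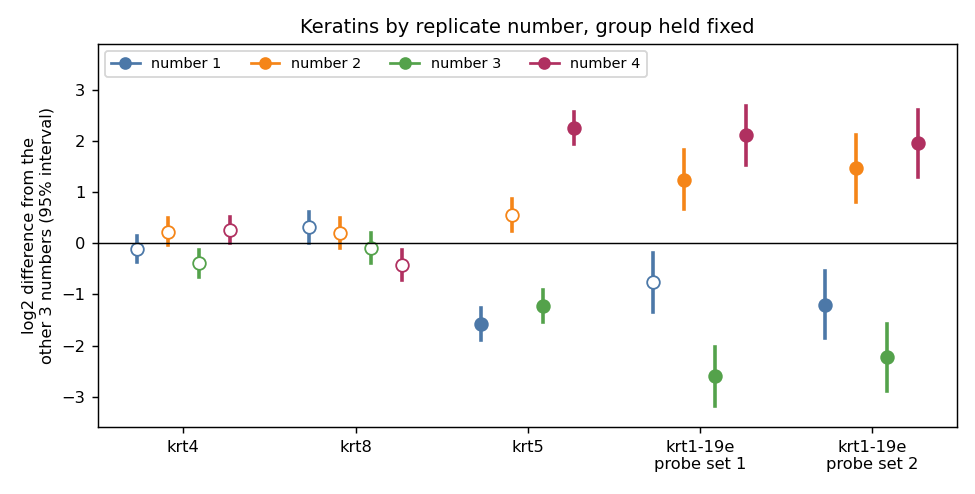
Log2 difference (vertical axis) of each replicate number from the mean of the other 3 numbers, with the group held fixed, for the 5 keratin probe sets; bars are 95% intervals, and filled points passed limma's test at an adjusted p under 0.05. Number 4 is filled and above 0 for krt5 (2.25) and both probe sets of krt1-19e (2.12 and 1.96), number 3 is filled and below 0 for the same 3, and all points of krt4 and krt8 are open.

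The members followed each other in part. Over the 12 arrays krt5 correlated with krt1-19e probe set 1 at 0.84, and krt4 with krt5 at 0.72 and with krt1-19e probe set 1 at 0.77. The level of krt8 correlated with none of them upwards: its values were -0.11 with krt4, -0.53 with krt5 and -0.23 with krt1-19e probe set 1. The 12 points share replicate numbers and are not independent, so these values are descriptions with no test.

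Other keratins on the array divided in a like way. There were 11 with a single symbol, and the F test of the replicate number called 8 of them, against 12.1% of all probe sets. In number 4, 6 of 11 were called higher, against 6.05% of all probe sets, and 0 lower. Their median was 0.67, against -0.01 over all probe sets tested. The largest changes were 2.08 for krt99 (SE 0.17) and 1.86 for krt15 (SE 0.20), and krt91, krt1-19d, krt97 and krt17 were at 1.22, 1.17, 0.88 and 0.67 (limma, adjusted p from 3.32e-05 to 0.0373 over the 6). The other probe set of krt1-19d, with the lower mean, was highest in number 4 only with MO-2 (6.61, against 6.58 in number 3). In control it had 7.07 in number 4 and 7.94 in number 2. With MO-1 it had 7.10 in number 4 and 7.18 in number 3. In number 1, 5 of 11 were called lower, against 2.53% of all probe sets, with a median of -0.78. The lowest were krt1-19d at -1.99 (SE 0.23) and krt15 at -1.52 (SE 0.20). The other probe set of krt1-19d was also lowest in number 1 in each group, by a narrower margin. Of the 11, 1 was called higher, krt18b at 0.64, where 318 of all 15502 probe sets were called higher. In numbers 2 and 3, 0 of 11 were called. Of all 15502 probe sets, 128 were called higher and 63 lower in number 2, and 158 and 371 in number 3, so that 0 of 11 lies near those shares. The largest changes were 0.76 for krt1-19d and -0.74 for krt99 in number 2, and 0.58 for krt94 and -0.40 for krt91 in number 3. The krt1-19e neighbour krt1-19d was at 0.06 in number 3, where krt1-19e was at -2.60.

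Among these, krt18a.1, a type I keratin and the neighbour of krt8, had a mean log2 signal of 11.98. Its log2 signal lay between 12.01 and 12.06 in control, and in the MO-1 and MO-2 groups between 11.53 and 12.22 and between 11.88 and 12.12. The F test of the replicate number gave an adjusted p of 0.499 (limma), and its change in number 4 was -0.02. For krt18b, 1 protein-coding gene away from krt4, the change in number 4 was -0.35 and did not pass (limma, adjusted p = 0.111). Mean signals of krt93 and krt95, 4.20 and 3.75, lay under the lower quartiles of all arrays. With the morpholinos 0 of the 11 were called in each comparison, with medians of -0.07 for MO-1 and 0.04 for MO-2 against 0.02 and 0.01 over all probe sets. The largest changes, none of which passed, were 0.32 for krt93 and -0.27 for krt15 with MO-1, and -0.59 for krt1-19d and 0.44 for krt97 with MO-2.

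**Figure D4:**
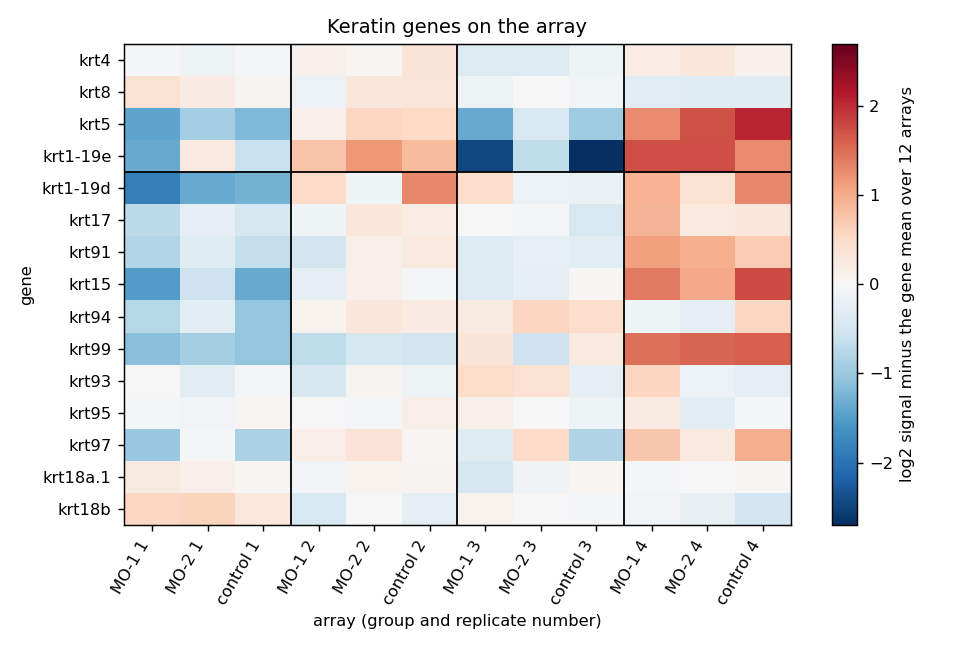
Log2 signal minus the mean of each gene over the 12 arrays (colour) for the 4 keratins described here, above the horizontal line, and the 11 other measured keratins, with 1 probe set a gene and the arrays ordered by replicate number. The columns of number 4 are red for krt5, krt1-19e, krt15, krt99 and krt91, those of number 1 are blue for most of the same genes, and krt4, krt8, krt18a.1, krt93 and krt95 stay pale throughout.

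Keratin filaments are joined to junctions by linker proteins, and several of these genes were high in the same arrays. Of 17 measured genes of other intermediate filaments and linkers, 4 were called higher in number 4, against 6.05% of all probe sets, and 0 lower. These 4 were the envoplakin genes evplb at 1.95 (SE 0.28) and evpla at 0.93, the periplakin gene ppl at 1.58 (SE 0.19) and the plectin gene plecb at 0.58. In number 1, 3 of 17 were called lower, against 2.53% of all probe sets: evplb at -1.71 (SE 0.28), ppl at -1.51 (SE 0.19) and evpla at -0.85 (SE 0.21). The lamin gene lmnb1, with the highest mean signal of the list at 9.94, was at -0.08 in number 4, and the plectin gene pleca, with 9.88, at 0.14 there. The muscle desmin gene desma was called higher in number 2 at 1.35 (SE 0.24) and lower in number 3 at -1.57 (SE 0.24). The plectin gene plecb was also called lower in number 3, at -0.70 (SE 0.16).

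In number 4, 22 of 23 epidermal junction and adhesion genes were higher, with a median of 0.58, where 7514 of all 15502 probe sets were higher. Of the 23, 15 were called higher, against 6.05% of all probe sets, and 0 were called lower. The hemidesmosome collagen gene col17a1b was at 1.06 (SE 0.13) and the desmosomal plakophilin gene pkp1b at 1.00 (SE 0.13). Of 26 epidermal surface and secreted protein genes, 24 were higher in number 4, against the same 7514 of 15502, with a median of 0.68. Of the 26, 13 were called higher and 1 lower, against 6.05% and 4.1% of all probe sets. The largest changes were those of the sciellin gene scel at 1.87 (SE 0.37) and the mucous cell gene agr2 at 1.39 (SE 0.29). In number 1, 11 of these 26 were called lower, against 2.53% of all probe sets, with a median of -0.60. Among them were the annexin gene anxa1b at -1.52 (SE 0.26) and scel at -1.48 (SE 0.37). The junction list had 17 of 23 genes lower in number 1 (median -0.09), where 8005 of all 15502 probe sets were lower, and 3 were called lower. The epidermal transcription factor list had 10 of 16 genes higher there (median 0.14), where 7497 of all were higher. Of these, tfap2b at 0.67 (SE 0.15) and foxi1 at 0.70 (SE 0.13) were called higher, where 318 of all probe sets were. Of 16 epidermal transcription factor genes, 7 were higher and 9 lower in number 4, with a median of -0.05. Of the 16, 0 were called higher and 2 lower, against 6.05% and 4.1% of all probe sets. The 2 were foxi1 at -0.91 (SE 0.13) and gata2a at -0.72 (SE 0.18). Which of the sorted cells gave the signal of these 2 genes was not tested. The gene tp63 was called higher in number 3 at 0.67 (SE 0.13), and elf3 lower at -0.75 (SE 0.17). In numbers 2 and 3 the surface list had 0 called. Of all 15502 probe sets, 128 were called higher and 63 lower in number 2, and 158 and 371 in number 3. The junction list had 0 called in number 2. In number 3, 18 of its 23 genes were lower (median -0.20), where 6992 of all probe sets were lower. Of these, tjp3 at -0.78 (SE 0.14) and pkp1b at -0.64 (SE 0.13) were called lower. The level of krt1-19e was high in number 2 and lowest in number 3.

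With the morpholinos 0 genes of these epidermal lists were called. The junction list had medians of -0.17 with MO-1 and -0.17 with MO-2, with 21 and 20 of 23 genes lower, where 7016 and 7455 of all 15502 probe sets were lower. Its mean level differed from control by 0.11, -0.19, -0.43 and -0.14 with MO-1 for numbers 1 to 4. With MO-2 it differed by 0.05, -0.33, -0.52 and 0.04. Number 3 gave 66.2% and 69.0% of the summed differences, and the 23 genes are not independent of each other. The largest changes were those of dsg2.1, a desmoglein gene, at -0.56 and -0.65 (SE 0.37 each), and the claudin gene cldni, at -0.33 and -0.49 (SE 0.27 each). The surface list had medians of -0.12 and -0.14, with anxa1b at -0.51 (SE 0.59) and sult2st1 at 0.46 (SE 0.26) with MO-1, and scel at -0.74 (SE 0.72) and anxa2a at -0.50 (SE 0.40) with MO-2. The transcription factor list had medians of 0.17 and 0.08, with 12 and 11 of 16 genes higher, where 8486 and 8047 of all 15502 probe sets were higher. Its largest changes were foxi1 at 0.61 (SE 0.35) and pou5f3 at 0.39 (SE 0.25) with MO-1, and tp63 at -0.46 (SE 0.27) and foxi1 at 0.40 (SE 0.35) with MO-2.

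Markers of muscle and endothelium and the 3′ to 5′ signal moved with the replicate number too. All 20 measured skeletal muscle genes were called by the F test, against 12.1% of all probe sets. Of them, 16 were called higher in number 4 (median 1.13), against 6.05% of all probe sets. In number 3, 17 were called lower (median -1.32), against 2.39%. In number 2, 3 were called higher, against 0.826%, and in number 1, 3 lower, against 2.53%. The titin gene ttn.2 had the largest change in number 3, -3.07 (SE 0.35), and in number 4, 2.37 (SE 0.35), followed by the myosin light chain gene mylpfa at -1.97 (SE 0.25) in number 3 and the parvalbumin gene pvalb2 at 1.67 (SE 0.25) in number 4. In number 2 ttn.2 was at 1.78 (SE 0.35) and pvalb4 at 1.68 (SE 0.39), and in number 1 they were at -1.08 and -1.64. Mean muscle level lay between 10.96 and 11.58 in number 4, between 10.87 and 11.04 in number 2, between 9.20 and 10.17 in number 1 and between 8.56 and 10.24 in number 3. The actin gene actc1b and smyhc1 had mean signals of 12.51 and 12.38 over the 12 arrays. Mean level of the epidermal surface list lay between 8.38 and 8.50 in number 4, between 7.87 and 8.21 in number 2, between 7.86 and 8.09 in number 3 and between 7.35 and 7.57 in number 1.

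Mean level of the 12 endothelial genes lay between 6.43 and 6.88 in number 4, and plvapb and mrc1a had the largest changes there, -2.30 (SE 0.22) and -1.90 (SE 0.24). For the GAPDH control probe sets the 3′ signal lay above the 5′ one by 1.76 to 2.09 in number 4, 1.68 to 1.83 in number 3, 0.78 to 1.57 in number 2 and 1.07 to 1.33 in number 1. For the acta1 control probe sets the difference was 3.49 to 3.88 in number 4, 3.04 to 3.23 in number 3, 2.50 to 2.98 in number 2 and 2.64 to 3.46 in number 1. The parts of these markers and of RNA quality in the differences of krt5 and krt1-19e between replicate numbers were not tested.

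**Figure D5:**
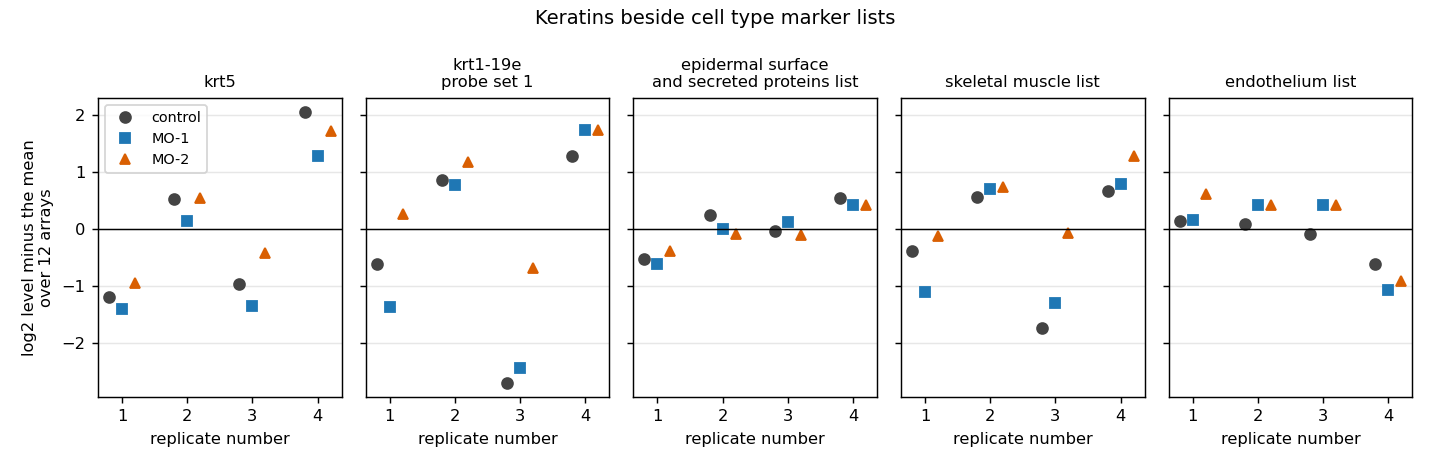
Log2 level minus its mean over the 12 arrays (vertical axis) of krt5, krt1-19e probe set 1 and the mean of 3 marker lists, by replicate number (horizontal axis), with circles for control, squares for MO-1 and triangles for MO-2. Number 4 is high for both keratins, the epidermal surface list and the muscle list and low for the endothelium list. Number 3 is low for both keratins and, in control and MO-1, for the muscle list, whose MO-2 array lies near the mean. The epidermal surface list is not low in number 3.

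Genes were also ranked by how like their profiles were to those of the members. Likeness was measured as Pearson's r over the 12 arrays with the mean of the 4 centred member profiles, among 8789 genes. The 10 most like were ttn.2 (0.97), neb, si:dkey-183i3.5, zgc:136930, ldb3a, nmrk2, cpt1b, si:ch211-202f5.3, pdlim7 and acta1a, with r from 0.943 to 0.968. Of these, ttn.2 and the skeletal actin gene acta1a stand in the muscle list, and none stands in the keratin or epidermal lists. The keratin and epidermal lists hold few of the genes compared, so that this count says nothing about the members. The muscle list has 20 measured genes and is not a full set, so 2 of 10 does not count the muscle genes among them. Taken alone, krt1-19e probe set 1 was most like ttn.2 (0.98), pdlim7 (0.97) and mybphb (0.97), and krt5 most like si:ch211-105c13.3 (0.95), trim63b (0.94) and rbp4 (0.94). For krt4 the most like were stk35l (0.90), klf11a (0.89) and COX1 (0.88), and for krt8 tspan9b (0.93), chd4b (0.90) and rpn1 (0.90). The mean profile is carried by krt5 and krt1-19e, whose range is widest, and the arrays share replicate numbers.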

How the data were processed

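The authors deposited log2 values of 12 one-colour Affymetrix zebrafish arrays. Per the submitters' processing notes they were made with RMA, a method of background correction and normalization between arrays. The sources used here name no version and no log base, and base 2 was read from the range of the values. Per the labels' protocols, a Trizol extraction was followed by NuGen amplification. Of 15617 probe sets, 115 controls were left out and 15502 were tested with no filter. Names came from the platform's annotation: 10795 probe sets had 1 symbol, 135 several and 4572 none, and symbols were updated through Entrez numbers for 10711, which changed 1. A gene of several probe sets was represented by that with the highest mean. RefSeq's table gave neighbours only.

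Limma 3.58.1 in R 4.3.3 was fitted to all 12 arrays, two-sided, with Benjamini-Hochberg adjustment over 15502 probe sets and a threshold of 0.05. Group comparisons had no covariate. Replicate numbers were compared with the group as a covariate, by the moderated F test and as each number against the mean of the other 3. Single members were also compared by exact permutation over the 70 splits of 4 and 4 arrays, which ignores the replicate number.

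Pairing by replicate number was checked after each group was centred. Correlations of the 12 same-numbered pairs ran from 0.223 to 0.626 (median 0.425), those of the 36 others had the median -0.17, and the best partner of each of the 12 arrays had its own number. The pairing thus comes from the data, not from the labels.

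Members and lists were chosen with earlier results of these data known. The probe set symbol krtcap2 is no keratin and was left out of the other keratins, as was 1 keratin probe set with several symbols. Of a list, the 2 genes with the highest mean and, in each comparison described, the 2 with the largest change are named; other genes named were chosen after their values were seen, except the members and those named by likeness. Fits were tested first on simulated data whose noise was independent between arrays, so that spread shared by arrays of a replicate number had no part in that test. Alternatives were other scalings, variance models, array weights, a filter on low signal, the mean of a gene's probe sets, the replicate block, fewer groups and arrays left out. No sequence is shown, and the planned description of promoters and proteins was not run.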

Additional observations from a re-analysis of the deposited data

How the results depend on the processing

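The calls of krt5 in numbers 1, 3 and 4 and of both probe sets of krt1-19e in numbers 3 and 4 were kept under every alternative run for them, and so were their F calls. No member was called in a group comparison under any alternative, and the replicate block changed no call: 0 probe sets were called with it in each of the 4 comparisons. Other member calls between replicate numbers moved. Apart from fits without 1 array, krt1-19e probe set 2 lost its call in number 1 in 6 of 9 alternatives. In number 2, probe set 1 lost its call in 5 of 10 and probe set 2 in 5 of 9. Some alternatives added calls of krt4, krt8, krt5 or krt1-19e probe set 1. Signs of group changes and counts of calls moved as well, and unless said otherwise the cause was not tested.

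A second quantile normalization gave 0.00954 for krt8 and 0.0202 for krt1-19e probe set 1 with MO-1, and 0.00435 for krt4 in MO-2 against MO-1. With both morpholinos krt8 was at -0.00181 after array medians were subtracted and at -0.00675 with array weights.

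Leaving out arrays shifts the balance of replicate numbers between groups. With 1 array or 1 number left out, the change with MO-1 ran from -0.20 to 0.10 for krt8, -0.17 to 0.02 for krt4, -0.98 to 0.21 for krt5, and -0.83 to 0.68 and -0.88 to 0.46 for krt1-19e. With MO-2 it ran from -0.0597 to 0.176 for krt8, -0.213 to 0.011 for krt4, -0.38 to 0.77 for krt5 and -0.0385 to 1.16 for krt1-19e probe set 2. With both morpholinos it ran from -0.11 to 0.11 for krt8, -0.60 to 0.49 for krt5, and -0.36 to 0.97 and -0.39 to 0.81 for krt1-19e. In MO-2 against MO-1 it ran from -0.0228 to 0.255 for krt8 and -0.12 to 0.10 for krt4. Probe sets called ran from 0 to 1 with MO-2 and with both morpholinos, the 1 being without replicate number 4.

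Counts of probe sets called between replicate numbers fell when groups were left out, which leaves fewer arrays. The F test called 805, 628 and 618 without control, MO-1 and MO-2, and 3943 with array weights. In the same order, number 1 had 197, 174 and 339 (2545 with array weights), and number 2 had 53, 22 and 56 (1261 with array weights and 122 with no group term). Number 3 had 274, 52 and 182, and number 4 had 759, 1005 and 464. With 1 array left out the counts ran from 1081 to 1922 by the F test, 101 to 815 in number 1, 23 to 216 in number 2, 77 to 572 in number 3 and 581 to 1805 in number 4.

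Of the 5 member probe sets, the F test called 5 with a variance trend and with array weights, and 3 to 4 with 1 array left out. Array weights raised its calls among all 15502 probe sets as well, to 3943 from 1873 without weights. For the variance trend no count over all probe sets is given, so member calls added with it were not set against a share. In number 1, 1 was called after quantile normalization, with a trend, with no group term and without each group, and 1 to 2 with 1 array left out. In number 2, 0 were called after quantile normalization, with a trend, with no group term and without control, 1 without MO-1 or MO-2, 4 with array weights, and 0 to 2 with 1 array left out. Array weights gave 1261 calls among all probe sets in number 2, against 128 higher and 63 lower without weights. In number 3, 4 were called with a trend, krt4 among them. In number 4, 3 to 4 were called with 1 array left out.

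The 4 arrays of a group and the unknown meaning of the replicate number limit these results.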

Other observations

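Ionocytes are another cell type of the larval skin. Of 8 measured ionocyte genes, 2 were called higher and 1 lower in the arrays numbered 4, against 6.05% and 4.1% of all probe sets. The sodium pump subunit genes atp1a1a.2 and atp1b1b were at 1.46 and 1.44 (SE 0.17 each), and the Notch ligand gene dlc was at -0.47. The members with the highest mean signal, the sodium pump gene atp1a1a.4 and the carbonic anhydrase gene ca2, were higher in number 2, at 1.19 (SE 0.25) and 1.08 (SE 0.21). In number 3, 3 of 8 were called lower, against 2.39% of all probe sets, with atp1a1a.4 at -1.47 (SE 0.25) and atp1a1a.2 at -1.06 (SE 0.17). With MO-1 and with MO-2 all 8 had a higher mean than in control, where 8486 and 8047 of all 15502 probe sets were higher. The medians of the 8 were 0.12 and 0.27, and 0 were called by limma.

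Of 26 measured neural genes, 2 were called higher and 3 lower in number 4, against 6.05% and 4.1% of all probe sets, with a median of -0.01. In number 1, 5 were called higher, against 318 of all 15502 probe sets, with a median of 0.57. In number 1 the RNA-binding protein gene elavl3 was at 1.26 (SE 0.28) and the Notch ligand gene dla at 1.23 (SE 0.20). Of 22 measured mesenchyme, fin fold and arch genes, 12 were higher and 10 lower in number 4, with a median of 0.10. Of the 22, 2 were called higher, against 6.05% of all probe sets, and 0 lower. The cartilage matrix gene matn1 had the largest change there, 4.68 (SE 0.30, limma, adjusted p = 4.28e-06).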
